A study of Saccharomyces cerevisiae BY4741 with 12 samples.

Results

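The rows described here were the 413 open reading frames (ORFs) whose systematic name ends in the suffix -A straight after the strand letter, as in YIL066W-A. They were picked by name from the 6632 annotated rows of the expression table, which held 7409 rows with its 777 antisense transcripts. This name rule was itself chosen with earlier results of these data known. The suffix marks an ORF that entered the yeast annotation after its neighbours had been numbered, and the letter W or C gives the strand. RefSeq annotation of the S288C genome (R64) listed 234 of them as genes, and 130 had a symbol of their own, such as DDR2 or RPL22B. The other 179 were not listed there.

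RNA was measured by strand-specific sequencing of polyadenylated transcripts from 4 haploid strains of Saccharomyces cerevisiae in the BY4741 background: the WT, the SET2 deletion (set2Δ), and the point mutants set2-Y149F and set2-Y236F. Per the study's methods, set2Δ cells carried an empty plasmid with a LEU2 marker, and each point mutant was a set2Δ strain that carried the mutant gene on this plasmid. Cells were grown at 30 °C from an OD600 of 0.2 to 0.8, and YPD and SD medium are both named without assignment to strains. The labels gave 3 libraries per strain, but each deposited strain mean was matched by whole reads of 2 libraries, so that 8 libraries were read out, called library 1 and 2 of a strain in no order. The paper speaks of independent experiments for its antisense comparison, but the recovered libraries could not be tied to them, so p-values measure only the spread between these libraries, which may be technical.

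Set2 methylates lysine 36 of histone H3 (H3K36) behind elongating RNA polymerase II. The mark recruits the Rpd3S deacetylase, which keeps gene bodies in a deacetylated state and restrains cryptic transcription that starts within genes, on either strand. Per the study, set2-Y149F cells lack H3K36me2, have less H3K36me1 and keep H3K36me3, whereas set2-Y236F cells lack H3K36me3 and keep the lower states. A short ORF that lies opposite a longer gene can be covered by a transcript antisense to that gene, whether or not a protein is made from it. A transcript that spans only another part of the gene does not cover it.

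Each library held between 15600885 and 21407576 reads in annotated rows, of which the suffix -A rows took between 1.91% and 2.29%. SET2 itself had 29.5 and 28.7 FPKM (fragments per kilobase of the row, scaled to the depth of the library) in WT libraries, 0.0704 and 0.310 after its deletion, 265 and 242 for set2-Y149F and 256 and 286 for set2-Y236F, so that both point mutants carried more SET2 transcript than the WT. LEU2, the plasmid marker that BY4741 lacks, was read in all 8 libraries, at 3325 and 3093 FPKM even in the WT, for which the methods name no plasmid, and between 1763 and 6231 FPKM over all strains. The part that SET2 dose and plasmids had in the results was not tested.

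Genome position separated the rows into distinct settings. Rows that RefSeq leaves out were located by searching their named strand, near the genes of the same number, for the only ORF with the length that the deposited values imply, which placed 141 of 179. The same search gave a single frame for 153 of 200 listed rows, and 153 of these were at the RefSeq position. At least 50% of the length lay opposite a gene for 107 rows and a smaller share for 25. A further 6 lay mostly inside a gene on their own strand, 237 had no gene opposite and under 50% of their length in a gene on their own strand, here called apart from genes, and 38 were not placed. Rows opposite a gene were mostly absent from RefSeq, 95 of 107.

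The ORFs on which the results turn are shown with the start codon, and the stop codon where the frame is printed whole, in capitals, read from the R64 genome on their own strand. YIL066W-A (chrIX:237366-237515, plus strand), YER068C-A (chrV:295583-295732, minus strand) and YFL021C-A (chrVI:96466-96615, minus strand) lie opposite a gene and rose in set2Δ, and are given by their first 150 bases. YGL123C-A (chrVII:277634-277864, minus strand) lies within RPS2 on the opposite strand and fell. YER053C-A (chrV:260933-261046, minus strand) and YKL162C-A (chrXI:145922-146074, minus strand) lie apart from genes, the former higher and the latter lower in set2Δ. YPR145C-A (chrXVI:824690-824926, minus strand) rose in the point mutants.
YIL066W-A: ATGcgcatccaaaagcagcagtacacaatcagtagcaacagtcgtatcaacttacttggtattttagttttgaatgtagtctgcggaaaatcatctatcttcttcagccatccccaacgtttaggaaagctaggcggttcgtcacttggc
YER068C-A: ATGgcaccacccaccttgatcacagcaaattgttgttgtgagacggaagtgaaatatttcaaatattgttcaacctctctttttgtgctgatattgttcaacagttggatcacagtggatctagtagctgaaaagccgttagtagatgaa
YFL021C-A: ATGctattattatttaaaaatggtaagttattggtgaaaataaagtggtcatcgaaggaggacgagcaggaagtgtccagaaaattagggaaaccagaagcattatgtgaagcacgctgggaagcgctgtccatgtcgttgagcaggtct
YGL123C-A: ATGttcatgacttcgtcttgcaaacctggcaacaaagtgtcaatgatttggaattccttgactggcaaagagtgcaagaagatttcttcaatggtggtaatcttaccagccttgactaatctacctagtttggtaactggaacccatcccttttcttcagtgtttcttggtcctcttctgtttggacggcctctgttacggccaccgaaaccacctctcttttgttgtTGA
YER053C-A: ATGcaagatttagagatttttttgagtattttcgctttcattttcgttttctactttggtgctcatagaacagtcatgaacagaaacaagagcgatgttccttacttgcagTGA
YKL162C-A: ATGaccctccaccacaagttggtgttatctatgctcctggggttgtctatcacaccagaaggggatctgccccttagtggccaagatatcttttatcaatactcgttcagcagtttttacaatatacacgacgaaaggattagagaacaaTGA
YPR145C-A: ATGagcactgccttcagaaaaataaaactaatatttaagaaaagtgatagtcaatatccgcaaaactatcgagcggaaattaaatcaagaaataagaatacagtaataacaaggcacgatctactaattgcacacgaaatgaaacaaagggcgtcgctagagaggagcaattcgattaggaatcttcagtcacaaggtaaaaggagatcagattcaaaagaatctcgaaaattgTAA

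Listed and unlisted rows differed in level. The median WT level was 5.25 FPKM for all 413 rows, 41.6 FPKM for the 234 listed rows and 1.44 FPKM for the 179 unlisted rows, beside 37.3 FPKM for the 6214 other annotated rows. The highest was CWP2, a cell wall mannoprotein, with 7569 and 7574 FPKM per WT library. RPL41B, a ribosomal protein gene, followed with 4319 and 4863 FPKM and HOR7, a hyperosmolarity-responsive gene, with 3107 and 3519 FPKM. Next came SPO24, named for sporulation, and the ribosomal protein genes RPL36B and RPL29, whose WT means were 2337, 1772 and 1669.6 FPKM. At the low end 100 rows were below 1 FPKM, 7 had no WT read, and 76 had fewer than 10 reads in each library. The median distance between libraries of a strain, averaged over strains, was 0.290 for rows with a WT mean below 1 FPKM, 0.324 from 1 to 10, 0.178 from 10 to 100 and 0.131 above 100 FPKM on the log2(FPKM + 1) scale, on which all differences below are given.

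**Figure D1:**
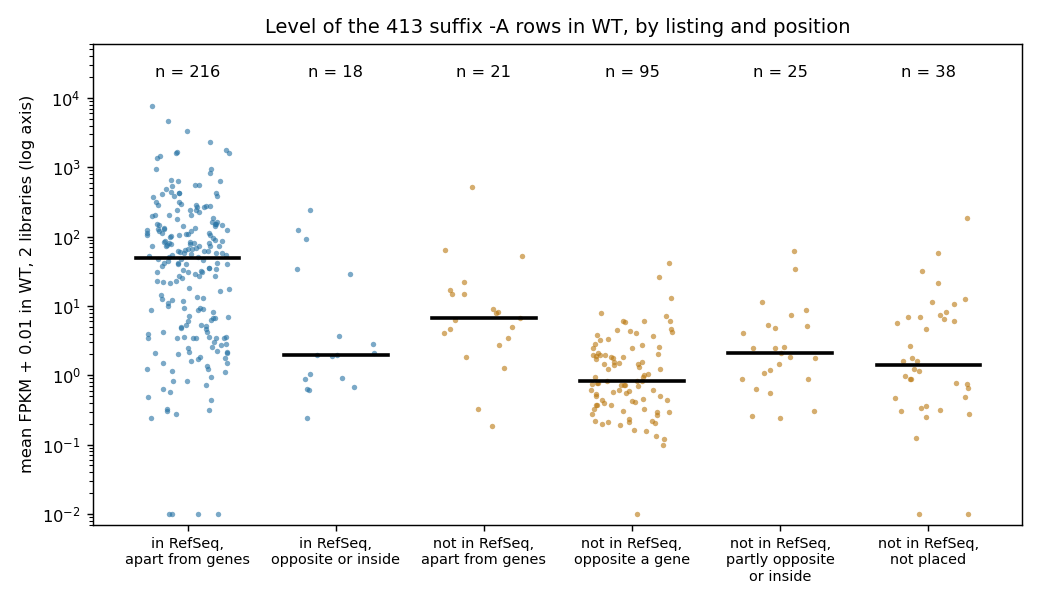
Mean FPKM of each suffix -A row in the WT, with 0.01 added and on a log axis, in 6 groups by RefSeq listing and position. Points are rows and black lines medians, and the listed rows apart from genes stand highest (median 49.5 FPKM) while unlisted rows opposite a gene have a median of 0.810 FPKM.

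The comparison of set2Δ with the WT asked how these ORFs behave without H3K36 methylation. Of 413 rows, 51 rose and 42 fell (limma, adjusted p under 0.05 over 6627 rows), where 11.1% of all annotated rows rose and 16.8% fell. With libraries scaled to the same median, 61 rose and 26 fell, but this scaling also moved the median of all annotated rows from −0.08 to 0.01. At least 2-fold, 38 rose and 8 fell, which is 9.2% and 1.94% of them beside 2.78% and 1.15% of all annotated rows. These counts depended on the constant added before the log, and with 10 FPKM in place of 1 they were 6 and 2. Shares of all annotated rows under that scaling and that constant are not given here. Their median difference was −0.0045, and that of all annotated rows −0.08. Among rows under 10 FPKM in every strain 11.9% of 219 suffix -A rows and 6.49% of 956 other rows rose at least 2-fold, and the part that low level had in the count was not tested. RefSeq does not list 22 of the 38 that rose 2-fold. By position they were 18 of 237 rows apart from genes, 10 of 107 opposite a gene, 4 of 25 partly opposite and 6 of 38 not placed. When each library was left out in turn, 22 of the 38 and 6 of the 8 passed the test every time. Rows named below were mostly picked by differences in these same libraries, so that a lack of overlap describes them and adds no support. In RNA of a whole culture, a change in all cells and a change in some of them cannot be told apart.

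**Figure D2:**
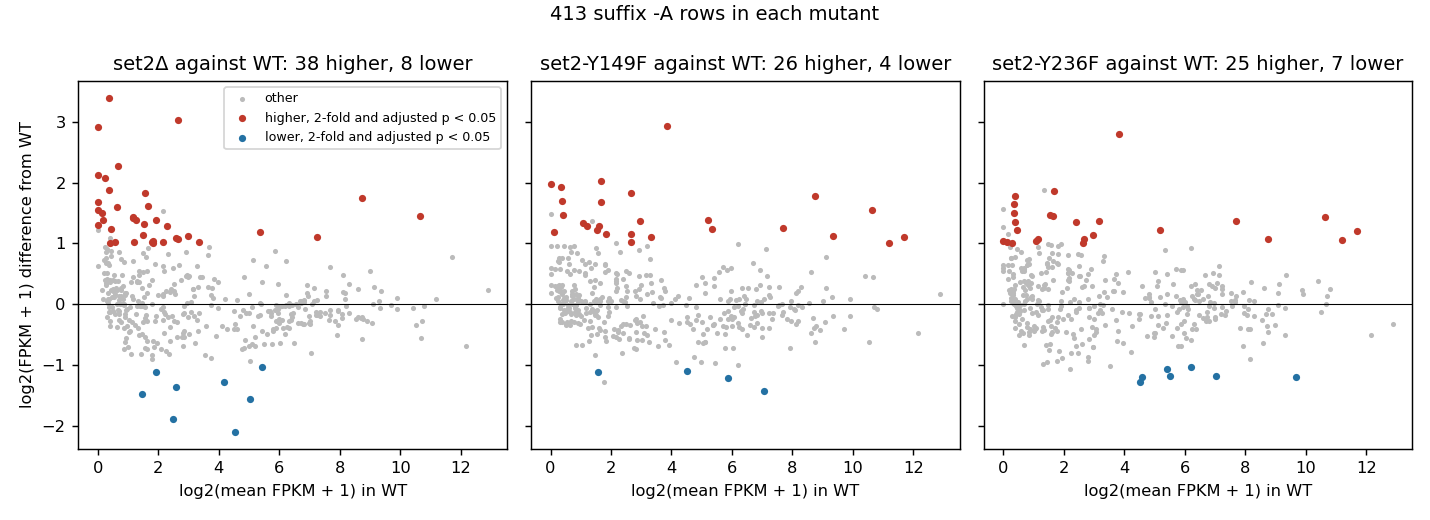
Difference from the WT of each suffix -A row on the log2(FPKM + 1) scale (vertical) against its WT level as log2(mean FPKM + 1) (horizontal), for set2Δ, set2-Y149F and set2-Y236F. Red and blue points passed the test at 2-fold, with 38, 26 and 25 red points in the 3 panels.

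A row opposite a gene had the largest rise in set2Δ. YIL066W-A has 88.96% of its length opposite YIL067C, an uncharacterized gene, and it was nearly silent in the WT. Its libraries had 0.314 and 0.256 FPKM (WT), 11.9 and 13.1 (set2Δ), 3.35 and 4.53 (set2-Y149F), 2.42 and 2.90 (set2-Y236F), on 3 and 2 reads in the WT and 102 and 111 in set2Δ. No mutant library overlapped the WT, and the point mutants lay between WT and set2Δ. It rose by 3.39 (SE 0.17, limma adjusted p = 2.7e-05) in set2Δ, by 1.93 (adjusted p = 0.00021) in set2-Y149F and by 1.51 (adjusted p = 0.00056) in set2-Y236F. The set2Δ level was above set2-Y149F by 1.46 (adjusted p = 0.0017) and above set2-Y236F by 1.88 (adjusted p = 0.00079). YIL067C, on the other strand, had a difference of −0.16 in set2Δ (adjusted p = 0.3), and the row went from 1.17% of that gene's level to 58.01%.

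YER068C-A lies 74.8% opposite ARG56, a gene of arginine biosynthesis. It had 0.753 and 0.394 FPKM (WT), 6.46 and 6.68 (set2Δ), 1.97 and 2.01 (set2-Y149F), 0.948 and 0.851 (set2-Y236F), with set2Δ far above the other libraries and set2-Y236F just above the WT. Its difference was 2.28 (SE 0.17, adjusted p = 0.00017) in set2Δ, 0.94 (adjusted p = 0.0041) in set2-Y149F and 0.28 (adjusted p = 0.23) in set2-Y236F. set2Δ exceeded set2-Y236F by 2.00 (adjusted p = 0.00075). YFL021C-A faces GAT1, an activator of nitrogen-regulated genes, over 76.02% of its length. It had 2.34 and 1.53 FPKM (WT), 8.65 and 9.94 (set2Δ), 4.83 and 6.96 (set2-Y149F), 7.36 and 6.74 (set2-Y236F), all mutant libraries lying above the WT. The rises were 1.82, 1.23 and 1.47 in that order (SE 0.19, adjusted p = 0.00069, 0.0023 and 0.0011).

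A further 7 rows opposite a gene rose at least 2-fold in set2Δ. They were YHR056W-A opposite RSC30 of the RSC chromatin remodeller (difference 1.60), YEL030C-A opposite ECM10, a mitochondrial Hsp70 (1.50), YAL042C-A opposite ERV46 of ER vesicles (1.43), YML057C-A opposite the calcineurin gene CMP2 (1.39), YHL006W-A opposite the kinase gene STE20 (1.32), YHR131W-A opposite YHR131C (1.03) and YIL071W-A opposite PCI8 (1.02). WT means of the 7 ran from 0.0901 to 1.87 FPKM. None of their set2Δ libraries overlapped the WT, which the picking of risen rows largely fixed beforehand. YHL006W-A had 1.97 and 1.76 FPKM (WT), 6.43 and 5.93 (set2Δ), 1.92 and 2.20 (set2-Y149F), 3.04 and 4.85 (set2-Y236F), so that set2-Y149F overlapped the WT and lay below set2Δ by 1.23 (adjusted p = 0.0052). The set2Δ calls of YEL030C-A (without WT library 1 or set2Δ library 2) and YHR131W-A (without WT library 2 or either set2Δ library) were lost. All of the 7 but YHR056W-A also rose in a point mutant, in part on calls lost without some library. YIL071W-A rose by 1.29 in set2-Y149F and 0.84 in set2-Y236F.

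**Figure D3:**
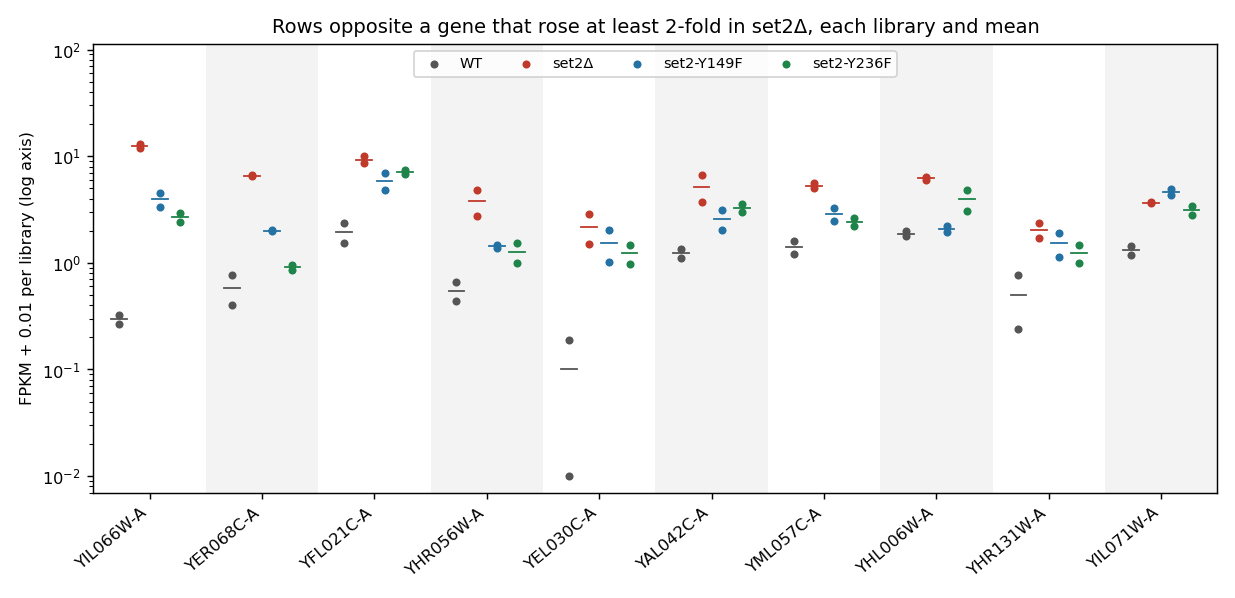
FPKM per library, with 0.01 added and on a log axis, of the 10 rows that lie at least 50% opposite a gene and rose at least 2-fold in set2Δ. Points are libraries and lines means of 2 libraries of a strain. The red set2Δ points stand above the grey WT points for each row, which follows largely from picking rows that rose.

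Over the 103 rows with a measured gene at least 50% opposite, the row stood at a median of 1.37% (WT), 2.39% (set2Δ), 1.84% (set2-Y149F) and 1.88% (set2-Y236F) of the gene's level. In the WT 40 of them were under 1%. Whether reads assigned to the wrong strand add to such low shares was not tested. Of the 103 rows 14 rose in set2Δ, and the facing gene rose for 2, fell for 2 and did not pass the test for 10. ECM10 rose with its row, by 0.91 (adjusted p = 0.00032), while ERV46 fell by 0.34 (adjusted p = 0.039). In set2-Y149F 10 of these rows rose, with 2 facing genes higher and 3 lower, and in set2-Y236F 13 rose, with 2 higher and 5 lower. For comparison, 16.8%, 23.2% and 21.9% of all annotated rows fell in set2Δ, set2-Y149F and set2-Y236F, and 11.1%, 18.1% and 16% rose. Of the 107 rows opposite a gene 13.1%, 9.35% and 12.1% rose, near the share of all annotated rows in set2Δ and below it in the point mutants. Under 10 FPKM in every strain, 14.1%, 13.6% and 14.3% of 956 rows without the suffix rose. Of 89 unlisted rows opposite a gene at this level, 14.6%, 8.99% and 10.1% rose. The 3 mutants share the 2 WT libraries in these counts. YCR045W-A, wholly opposite RRT12, a protease of spore wall formation, went the other way, from 23.7 and 28.5 FPKM per WT library to 19.00 and 12.1 without SET2 (difference −0.74, adjusted p = 0.031). RRT12 rose by 1.87 there (adjusted p = 0.0011), from 0.560 FPKM, and the call of the row was lost without either WT library or set2Δ library 2.

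YGL123C-A, wholly opposite the ribosomal protein gene RPS2, was the row of this setting that fell at least 2-fold in set2Δ. It had 46.1 and 37.8 FPKM (WT), 18.8 and 21.4 (set2Δ), 25.05 and 17.6 (set2-Y149F), 15.7 and 24.1 (set2-Y236F), all 6 mutant libraries below the WT. The differences were −1.02, −0.96 and −1.06 (adjusted p = 0.013, 0.011 and 0.0073). RPS2 stood at 3637 FPKM in the WT, of which the row was 1.15%, and 0.707% in set2Δ. Whether RPS2 reads assigned to the wrong strand add to the row was not tested. The set2Δ call was lost without WT library 1 or either set2Δ library, and that in set2-Y149F without WT library 1 or set2-Y149F library 2.

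**Figure D4:**
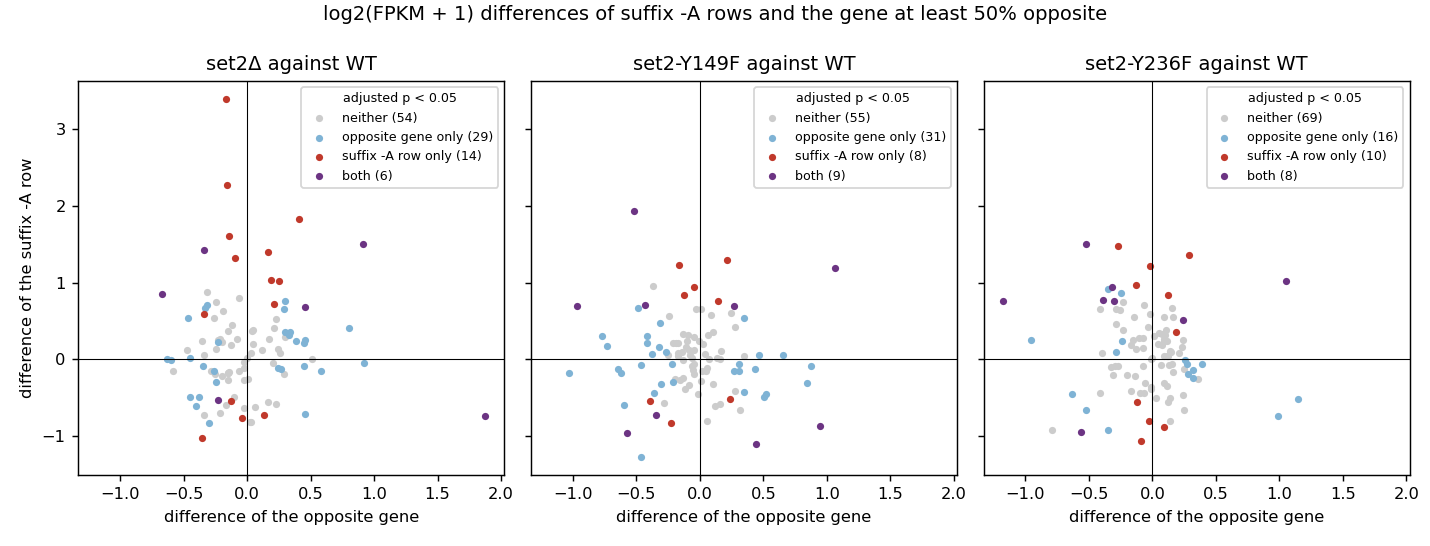
Difference from the WT of each suffix -A row (vertical) and of the gene at least 50% opposite it (horizontal), on the log2(FPKM + 1) scale, for 103 pairs in each mutant. Colour gives which of the pair passed adjusted p under 0.05, and in set2Δ 14 rows passed alone, 29 genes alone and 6 pairs together.

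Pairing by name number gave other neighbours. A row of the same number on the other strand existed for 259 of the 413, and of the 35 that rose in set2Δ the partner rose for 4, fell for 6 and did not pass the test for 25. Over all 258 partners tested, 42 rose and 44 fell, and of all annotated rows 11.1% rose and 16.8% fell. A relation between row and partner was not tested. YHR049C-A, whose partner is the serine hydrolase gene FSH1 without overlap, had 1 and 1 reads in the WT libraries and 28 and 18 in those of set2Δ. It rose by 2.08 (SE 0.41, adjusted p = 0.0091) while FSH1 fell by 0.92 (adjusted p = 0.00063), and its call was lost without set2Δ library 1.

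None of the 413 rows was overlapped on its own strand by any of the 777 antisense transcripts that the authors listed, and no listed transcript overlapped a protein-coding gene of RefSeq on its own strand. Per the paper, these 777 are only those raised at least 2-fold in set2Δ. They were assembled from reads opposite to annotated transcripts and from reads between genes. Overlap with annotated rows was thus largely excluded beforehand, and its absence cannot show whether antisense RNA covers these rows. Within 500 bases, 19 rows had such a transcript on their strand. YHL015W-A, 1 base away, and YHR049C-A, 32 bases away, rose, as did SDH6, an assembly factor of succinate dehydrogenase (4 bases, difference 0.71, adjusted p = 0.0014). MCO12, 53 bases away, had a difference of −0.19 (adjusted p = 0.16), and YIL014C-A, 372 bases away, fell. These are only some of the 19, named for large differences or after their values were known. A link between this distance and a rise was not tested. YAR019W-A, 41.4% opposite the mitotic exit kinase gene CDC15, rose in each mutant, by 1.88, 1.69 and 1.64. Its reads went from 3 and 1 in the WT to 19 and 30 (set2Δ), 26 and 22 (set2-Y149F) and 16 and 20 (set2-Y236F), and its adjusted p-values were 0.0014, 0.0013 and 0.0016.

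Rows without a WT read allow only lower bounds, taken against a floor of 3 reads over the WT libraries. YKL100W-A, which was not placed, had 14 and 9 reads (set2Δ), 0 and 2 (set2-Y149F) and 2 and 0 (set2-Y236F), and was at least 7.81-fold higher in set2Δ than in the WT. It exceeded both point mutants there, by 2.40 (adjusted p = 0.0082) and 2.36 (adjusted p = 0.0073), and both calls were lost without set2Δ library 1 and with 0.1 FPKM added before the log. TDA8 was at least 7.47-fold higher in set2Δ, YHL015W-A at least 4.08-fold, YDR354C-A at least 3.74-fold and YBR221W-A at least 3.06-fold. YBR221W-A also rose in the point mutants, by 1.98 (set2-Y149F) and 1.05 (set2-Y236F). The TDA8 call was lost without set2Δ library 2, and that of YHL015W-A (adjusted p = 0.031) without either WT library or set2Δ library 2. YHL048C-A, at least 2.38-fold higher, did not pass the test (adjusted p = 0.079). In the other direction YLR149C-A had 3 and 3 reads in the WT and none in set2Δ, at least 1.96-fold lower (adjusted p = 0.0031). A further 5 rows were without reads in 1 mutant, YOL164W-A in set2Δ, YJL127W-A in set2-Y149F, and YIL068W-A, YLL006W-A and YLR156C-A in set2-Y236F, and none of these passed the test against the WT in the mutant that lacked reads. Between mutants, YJL127W-A was higher in set2Δ than in set2-Y149F (adjusted p = 0.026), YLL006W-A higher in set2Δ than in set2-Y236F (adjusted p = 0.02) and YOL164W-A lower there (adjusted p = 0.018), and each of these calls was lost when either set2Δ library was left out. YHL046W-A had 2 and 5 reads in set2Δ, 0 and 4 in set2-Y149F and none in the remaining strains.

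Among rows apart from genes, YER053C-A, an uncharacterized ORF, rose most in set2Δ. It had 6.52 and 3.98 FPKM (WT), 33.6 and 70.4 (set2Δ), 17.2 and 25.3 (set2-Y149F), 10.8 and 11.8 (set2-Y236F), all mutant libraries above the WT and those of set2Δ the farthest apart. The differences were 3.02 (SE 0.34, adjusted p = 0.0009), 1.84 (adjusted p = 0.0044) and 1.00 (adjusted p = 0.049), the last of which was lost without either library of WT, set2-Y149F or set2-Y236F. DDR2, a gene induced by many stresses, had 409 and 444 FPKM (WT), 1378 and 1485 (set2Δ), 1298 and 1646 (set2-Y149F), 906 and 879 (set2-Y236F), again with no overlap. It rose 3.36-fold, 3.45-fold and 2.09-fold, with differences of 1.75, 1.78 and 1.07 (SE 0.13, adjusted p = 0.00017, 0.00013 and 0.00076). EGO4, related to the TORC1-associated protein Ego2, had 1698 and 1488 FPKM (WT), 4111 and 4594 (set2Δ), 4319 and 4979.8 (set2-Y149F), 4202 and 4393 (set2-Y236F) and rose by 1.45, 1.54 and 1.43. YCL048W-A rose by 1.61, 2.02 and 1.45, on 20 reads over both WT libraries and 81, 131 and 65 in the mutants. YLR285C-A set set2Δ apart, with 145 and 156 FPKM (WT), 351 and 299 (set2Δ), 163 and 164 (set2-Y149F), 204 and 159 (set2-Y236F). It rose by 1.10 in set2Δ (adjusted p = 0.001) and was higher there than in set2-Y149F by 0.98 (adjusted p = 0.0027) and in set2-Y236F by 0.84 (adjusted p = 0.004).

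A further 13 rows rose at least 2-fold in set2Δ, with differences from 1.01 to 1.41 and WT means from 0.116 to 39.9 FPKM. YER078W-A, YER188C-A, YGR174W-A, DPC7, YNL277W-A, YOR072W-A, YOR316C-A and YOR381W-A lay apart from genes, YEL075W-A, YER076W-A and YOR329W-A partly opposite a gene, and YOR161W-A and YOR231C-A were not placed. YER078W-A, DPC7, YNL277W-A and YOR161W-A kept the call each time that a library was left out, and the other 9 lost it at least once. All but YOR231C-A and YOR316C-A also rose in a point mutant, in part on calls lost without some library. YOR161W-A rose by 1.37 in set2-Y149F and 1.14 in set2-Y236F, DPC7 by 1.11 in set2-Y149F and YNL277W-A by 1.08 in set2-Y236F. DPI8 had 177 and 233 FPKM (WT), 326 and 298 (set2Δ), 533 and 442 (set2-Y149F), 463 and 601 (set2-Y236F) and rose by 0.62, 1.25 and 1.37, the first of which was lost without WT library 1 or either set2Δ library.

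The stress and growth-state list of 7 genes had 2 rises and 2 falls in set2Δ, and 5 rises and no fall in each point mutant, with medians of −0.22, 0.84 and 0.97. Of all annotated rows 11.1%, 18.1% and 16% rose and 16.8%, 23.2% and 21.9% fell in the 3 mutants, with medians of −0.08, −0.04 and −0.02. The list was chosen with earlier results of these data known, and DDR2 is not among its genes. Its counts therefore do not test stress genes as a group. HOR7 had 3107 and 3519 FPKM (WT), 5728 and 5616 (set2Δ), 7214 and 6958 (set2-Y149F), 6819 and 8506 (set2-Y236F), no mutant library overlapping the WT. Its differences were 0.78, 1.10 and 1.20 (adjusted p = 0.012, 0.0019 and 0.0013), and the set2Δ call was lost without any of the 4 libraries compared. SPO24 had 2452 and 2221 FPKM (WT), 2137 and 2878 (set2Δ), 4671 and 4728 (set2-Y149F), 4097 and 5695 (set2-Y236F), which overlapped between WT and set2Δ, and rose by 1.01 and 1.05 in the point mutants. MNC1 went in opposite directions, with 34.9 and 36.4 FPKM (WT), 16.98 and 27.7 (set2Δ), 99.5 and 90.3 (set2-Y149F), 80.2 and 89.3 (set2-Y236F). The differences were −0.69 (adjusted p = 0.03), 1.39 (adjusted p = 0.0012) and 1.22 (adjusted p = 0.0021), and the fall in set2Δ was lost without either WT library or set2Δ library 1. HUG1, a gene of the DNA damage response, fell by 0.89 in set2Δ (adjusted p = 0.0012). FCY22, related to purine and cytosine permeases, rose there by 1.09 (adjusted p = 0.0014) from 5.22 and 4.81 FPKM to 12.4 and 11.3.

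Because DDR2, EGO4 and YER053C-A rose together, their promoters were searched for CCCCT, the stress response element bound by Msn2 and Msn4, on both strands. The DDR2 window covers 250 bases before and 50 after the start of the coding sequence (chrXV:231706-232005, minus strand, R64), with matches in capitals.
DDR2 promoter: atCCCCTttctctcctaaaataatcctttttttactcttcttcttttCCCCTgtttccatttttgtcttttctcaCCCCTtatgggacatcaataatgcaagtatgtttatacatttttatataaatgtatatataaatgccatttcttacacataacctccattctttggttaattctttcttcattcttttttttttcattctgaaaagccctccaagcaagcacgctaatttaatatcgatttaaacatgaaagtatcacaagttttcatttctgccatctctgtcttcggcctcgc
It holds 3 copies, where 21.6% of 6001 windows of this length hold at least 1 and 2.93% hold 2 or more. EGO4, YER053C-A, SPO24 and DPI8 have 1 copy each, and HOR7, MNC1 and YPR145C-A have none in the window. Of the listed rows that rose at least 2-fold, 5 of 16 in set2Δ, 8 of 16 in set2-Y149F and 7 of 13 in set2-Y236F had a match, beside 62 of all 234. These sets of risen rows share members and the WT libraries, so their shares are not separate observations. A match is a description of the window and not a mapped site, and a part of Msn2 or Msn4 in the rises was not tested.

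The point mutants were compared with the WT to see what follows when H3K36me2 is lost and H3K36me1 lowered, or when H3K36me3 is lost. In set2-Y149F 58 of the 413 rows rose and 43 fell, where 18.1% and 23.2% of all annotated rows did, and with libraries scaled to the same median 69 rose and 31 fell. At 2-fold these were 26 and 4 rows, where 3.37% and 2.04% of all annotated rows were. In set2-Y236F 69 rose and 37 fell (background 16% and 21.9%), 25 and 7 of them at least 2-fold (background 3.2% and 1.67%). With 0.1 FPKM added before the log in place of 1, the 2-fold rises were 40 (set2-Y149F) and 42 (set2-Y236F) and the 2-fold falls 8 and 11, with 41 rises in set2Δ. With 10 FPKM added, the rises were 10 and 7 and the falls 1 and 2, so that the number of 2-fold rises in set2Δ relative to the point mutants depends on this constant. Scaled to the same median, 86 rose and 21 fell in set2-Y236F. That scaling moved the median of all annotated rows to 0.03 in set2-Y149F and 0.06 in set2-Y236F. Shares of all annotated rows under it or under the other constants are not given here. Without that scaling the median differences of the suffix -A rows were 0.03 and 0.06, and those of all annotated rows −0.04 and −0.02. At 2-fold, 4 and 5 of 107 rows opposite a gene rose, as did 17 and 14 of 237 rows apart from genes.

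YPR145C-A, an uncharacterized ORF with the number of the asparagine synthetase gene ASN1, was the row with the largest rise in both point mutants. It had 13.9 and 12.7 FPKM (WT), 12.7 and 25.9 (set2Δ), 104 and 112 (set2-Y149F), 105 and 92.03 (set2-Y236F), where set2Δ overlapped the WT and the 4 point mutant libraries lay far above the other 4. The rises were 8.10-fold and 7.41-fold, differences of 2.93 and 2.80 (SE 0.26, adjusted p = 0.00024 and 0.00031). set2Δ was below set2-Y149F by 2.50 (adjusted p = 0.0014) and below set2-Y236F by 2.37 (adjusted p = 0.0016). ASN1, which does not overlap it, fell from 384 FPKM by 0.63, 1.09 and 0.97 in set2Δ, set2-Y149F and set2-Y236F (adjusted p = 0.0033, 0.00024 and 0.00041). YMR315W-A rose by 1.68 in set2-Y149F and 1.86 in set2-Y236F, on 9 reads over the WT libraries and 45 and 41 over those of the mutants. YJR140W-A, not placed, rose by 1.78 in set2-Y236F (adjusted p = 0.0017), on 2 WT and 18 mutant reads. It also rose by 1.01 in set2Δ (adjusted p = 0.025, 9 reads) and 0.76 in set2-Y149F (adjusted p = 0.048, 8 reads), the former lost without WT library 2 or either set2Δ library and the latter without any library but WT library 1. YDR371C-A had a difference of 1.87 there, on 6 and 28 reads, and did not pass the test (adjusted p = 0.061).

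Losses were fewer. RPL22B, a ribosomal protein gene with an intron, had 130.5 and 131 FPKM (WT), 82.1 and 68.1 (set2Δ), 52.5 and 44.6 (set2-Y149F), 54.4 and 60.02 (set2-Y236F), and no mutant library reached the WT. It fell by 0.80, 1.42 and 1.18 (SE 0.11, adjusted p = 0.0024, 0.00017 and 0.00036). PMP1, a regulator of the plasma membrane H+-ATPase, had 808 and 847 FPKM (WT), 821 and 828 (set2Δ), 654 and 602 (set2-Y149F), 389.9 and 335 (set2-Y236F), with set2Δ inside the WT range. It fell by 1.19 in set2-Y236F (adjusted p = 0.0002) and by 0.40 in set2-Y149F (adjusted p = 0.015, lost without either WT library or set2-Y149F library 2), and its difference in set2Δ was −0.0045 (adjusted p = 0.98). YOL038C-A fell by 0.65, 0.47 and 1.17, and MEO1 by 1.20 in set2-Y236F (adjusted p = 0.003). COA2, a cytochrome oxidase assembly factor, fell by 0.99 and 1.03 in the point mutants. YHR032W-A, not placed, fell by 1.21 in set2-Y149F (adjusted p = 0.0015). YER046W-A, opposite SAP1, fell there by 1.11 on 25 WT and 6 mutant reads, a call lost without either WT library or set2-Y149F library 2, and YER147C-A, opposite the TATA-binding protein gene SPT15, had a difference of −1.27 that did not pass the test (adjusted p = 0.061).

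YKL162C-A, an uncharacterized ORF, was lower in set2Δ than in each of the other strains. It had 5.47 and 3.71 FPKM (WT), 0.676 and 0.343 (set2Δ), 4.17 and 5.98 (set2-Y149F), 8.03 and 9.61 (set2-Y236F), on 2 and 1 reads in set2Δ, whose libraries alone lay below the WT. The difference was −1.88 (SE 0.22, adjusted p = 0.0011), and set2Δ was below set2-Y149F by 2.00 (adjusted p = 0.0016) and below set2-Y236F by 2.71 (adjusted p = 0.00072). MEI4, which is needed for meiotic recombination, had 3.08 and 2.46 FPKM (WT), 0.590 and 0.918 (set2Δ), 2.43 and 2.16 (set2-Y149F), 2.96 and 2.89 (set2-Y236F). It fell by 1.10 in set2Δ (adjusted p = 0.0035), which lay below set2-Y236F by 1.17 (adjusted p = 0.0038). YGR122C-A fell by 1.27 in set2Δ and 0.94 in set2-Y149F, and YIL014C-A by 1.55 in set2Δ (adjusted p = 0.00034). YHR214W-A fell by 2.10, 1.09 and 1.28, but 81.8% of its 75-base windows occur elsewhere in the genome, so that its reads may be shared with another copy. YCR102W-A fell by 1.36 in set2Δ (adjusted p = 0.037), a call lost without any of the 4 libraries compared.

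**Figure D5:**
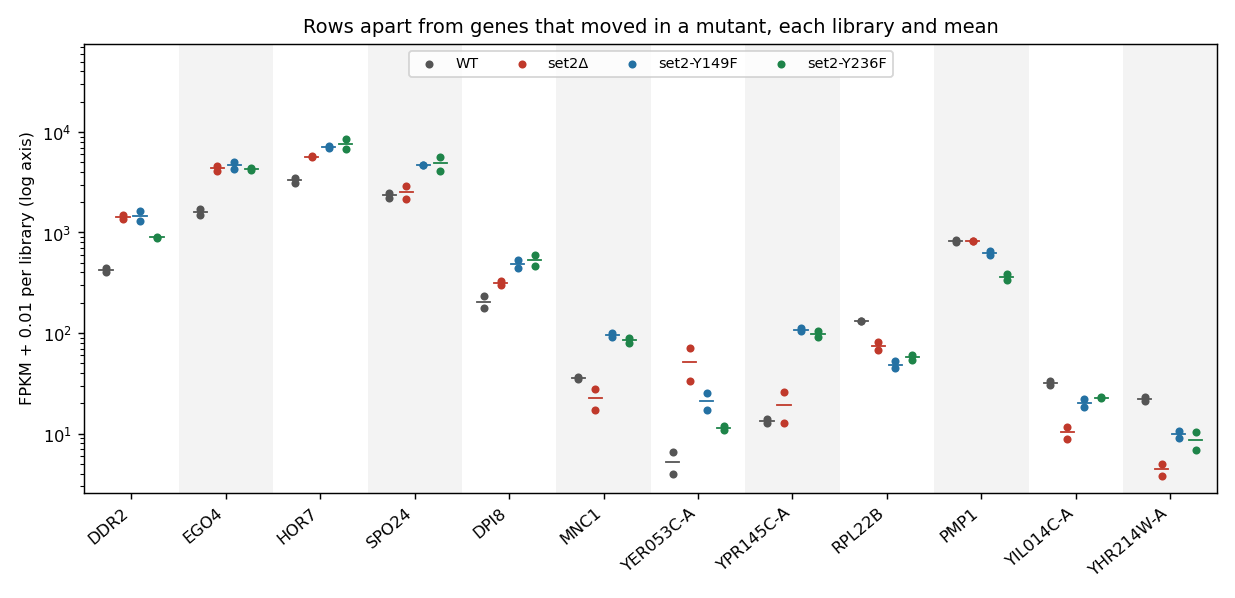
FPKM per library, with 0.01 added and on a log axis, of 12 rows apart from genes that moved in a mutant. Points are libraries and lines means of 2 libraries of a strain, and the point mutants stand above WT and set2Δ for SPO24, MNC1 and YPR145C-A, while PMP1 is lowest in set2-Y236F.

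Of 20 mitochondrial genes, 1 rose and 4 fell in set2Δ, and 6 rose and 6 fell in each point mutant, with medians of −0.19, −0.01 and −0.04. For this list and those that follow, the shares of all annotated rows were 11.1% higher and 16.8% lower in set2Δ, 18.1% and 23.2% for set2-Y149F, and 16% and 21.9% for set2-Y236F. These lists too were chosen with earlier results of these data known. Of 13 genes of the secretory pathway, vacuole and membrane, 1, 1 and 2 rose and 4, 2 and 2 fell in set2Δ, set2-Y149F and set2-Y236F. CWP2 was among those that did not pass the test, with differences of 0.23, 0.18 and −0.33. Of 7 ribosome and translation genes none rose and 2, 2 and 1 fell. RPL41B fell by 0.68 in set2Δ (adjusted p = 0.046), a call lost without any of the 4 libraries compared and with libraries scaled to the same median. Of 15 nuclear, proteasome and chromosome genes, 0, 2 and 1 rose and 3, 1 and 1 fell. SEM1, a proteasome subunit, rose by 0.54 in set2-Y149F (adjusted p = 0.0096, lost without WT or set2-Y149F library 2), and DAD4, a kinetochore subunit, had differences of 0.04, 0.05 and −0.03 that did not pass.

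NAG1, which lies wholly opposite IMO32, had 0.283 and 1.04 FPKM (WT), 0.525 and 0.747 (set2Δ), 0.692 and 0.930 (set2-Y149F), 0.728 and 1.12 (set2-Y236F), and its differences of 0.01, 0.16 and 0.24 did not pass the test. The 5 retrotransposon Gag rows had 2 rises in set2Δ, 1 in set2-Y149F and none in set2-Y236F, all below 2-fold. The highest were YLR256W-A, with a WT mean of 312 FPKM, and YLR035C-A, with 276 FPKM, which rose by 0.48 in set2Δ (adjusted p = 0.01, lost without either WT library or set2Δ library 2). Reads may be shared between copies for 32 of the suffix -A rows, these among them, since over 20% of their 75-base windows occur elsewhere.

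Compared directly, the point mutants separated few rows. Of the 413, 9 were higher in set2-Y149F and 8 higher in set2-Y236F (2.47% and 0.951% of all annotated rows), 0 and 1 of them by 2-fold (0.0905% and 0.0604%). YBR141W-A, not placed, was the 2-fold case, with 2.66 and 3.34 FPKM in set2-Y149F libraries and 7.46 and 7.66 in those of set2-Y236F (difference −1.10, adjusted p = 0.042). YPL222C-A, wholly opposite FMP40, had 3.97 and 4.61 FPKM (WT), 6.31 and 4.48 (set2Δ), 5.02 and 7.25 (set2-Y149F), 11.9 and 13.2 (set2-Y236F), a difference of −0.94 between the point mutants (adjusted p = 0.044). DDR2 and PMP1 were higher in set2-Y149F, by 0.71 (adjusted p = 0.04) and 0.79 (adjusted p = 0.029). None of the 17 passed the test each time that a library was left out, and none passed without either WT library or either set2Δ library, which enter only through the shared spread.

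Against the point mutants, set2Δ was higher by at least 2-fold for 9 rows and lower for 7 with set2-Y149F (0.936% and 1.57% of all annotated rows), and higher for 9 and lower for 12 with set2-Y236F (0.905% and 1.6%). YIL066W-A, YER068C-A, YER053C-A, YKL100W-A and YGL014C-A were higher in set2Δ against both, and YPR145C-A, MNC1, YKL162C-A, YLR149C-A and AUA1 lower. YGL014C-A lost both calls without either set2Δ library and with 0.1 FPKM added before the log, and against set2-Y149F also without either library of that strain. YER053C-A lost the call against set2-Y149F without set2Δ library 2 or either set2-Y149F library. Of the 2-fold calls against set2-Y149F, 3 of 9 higher and 6 of 7 lower held each time that a library was left out, and against set2-Y236F 5 of 9 and 10 of 12. AUA1, which affects amino acid uptake, had 1.96 and 1.99 FPKM (WT), 1.63 and 1.47 (set2Δ), 4.33 and 4.33 (set2-Y149F), 5.39 and 4.30 (set2-Y236F), with the point mutants above both other strains.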

How the data were processed

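RNA was sequenced from 4 yeast strains. Per the labels the reads were processed with HTSeq 0.13.5, Cuffdiff, Cufflinks 2.2.1, bedtools 2.29.2, SAMtools 1.10, TopHat2 2.1.1 and Trimmomatic 0.38 on sacCer3, and the authors deposited 1 mean FPKM per strain and row, with their own fold changes and p-values, which were not used. Positions and other annotation columns of the deposited sheet are text or other values. FPKM steps of a mean are whole reads divided by length, so that reads of 2 libraries per strain were solved for: 6627 of 6632 annotated rows, all 413 suffix -A rows among them, came out whole within 1e-08 reads, and 5 rows were left out. Libraries could not be tied to single samples of the labels.

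FPKM of the 8 libraries, as log2(FPKM + 1), were fitted over 6627 rows with limma 3.58.1 (R 4.3.3, trended variance, 4 strains, no covariate), Benjamini-Hochberg adjusted, with calls at adjusted p under 0.05 and 2-fold at a difference of at least 1. On simulated data 84% of rows changed by 1 (log2) and 100% of those changed by 2 were recovered in the set2Δ comparison. The changed rows were drawn only from rows of at least 1 FPKM in the WT, with noise added on the log scale and no read counting. Recovery was thus not measured for the 100 suffix -A rows below 1 FPKM in the WT, and may differ for rows of few reads. Python 3.11.15 with numpy 2.4.6 and pandas 2.3.3 did the rest. Rows were named by a rule: the 10 largest 2-fold differences in each direction in set2Δ and the 5 in each point mutant, the 6 highest in the WT, rows under a listed antisense transcript, rows at 0 in a strain, up to 4 of each list, and their opposite neighbours. The members and lists were chosen with earlier results of these data known, and rows outside the rule were named after their values were known: HUG1, AUA1, SDH6, MCO12, DPI8, YLR285C-A, YCR045W-A, YPL222C-A, YBR141W-A, YGL014C-A, YHL046W-A, YIL068W-A, YLL006W-A, the 7 further rows opposite a gene and the 13 further rows that rose at least 2-fold in set2Δ. Alternatives were the pseudocount, median scaling, a low filter, RefSeq rows, voom, summed reads, no trend and leaving out each library. Intervals and floors cover counting error only.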

Additional observations from a re-analysis of the deposited data

How the results depend on the processing

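No paired analysis was possible because the recovered libraries carry no replicate numbers. With a pseudocount of 10 in place of 1, the 2-fold calls went from 38 higher and 8 lower to 6 and 2 in set2Δ, from 26 and 4 to 10 and 1 for set2-Y149F, and from 25 and 7 to 7 and 2 for set2-Y236F, and with 0.1 they were 40 and 8 (set2-Y149F) and 42 and 11 (set2-Y236F). Counting only rows in RefSeq left 16 and 2, 16 and 1, and 13 higher at 2-fold, and 23, 38 and 42 higher at any size. With libraries scaled to the same median, 26 rows fell in set2Δ and 21 in set2-Y236F, and with voom weights 22 and 21. Between the point mutants, the 2-fold call (1) became 0 with a pseudocount of 10, with summed reads, without the variance trend, with voom, over placed rows and over RefSeq rows. The 9 rows higher in set2-Y149F became 0 without the trend, and the 8 higher in set2-Y236F became 0 without the trend, 1 with summed reads, 3 with voom and 5 over RefSeq rows. Rows that rose together with their neighbour were 10 and 6 in the point mutants by name number and 3 and 2 by overlap. The cause of these changes was not tested, apart from fewer rows being counted. Shares of all annotated rows under these settings are not given here.

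Leaving out 1 library at a time (the lone library is assumed to vary like the others) gave 30 to 63 higher and 13 to 48 lower rows in set2Δ, 27 to 41 and 5 to 8 at 2-fold. It gave 35 to 65 and 17 to 50 in set2-Y149F (21 to 28 and 4 to 8 at 2-fold) and 37 to 69 and 17 to 37 in set2-Y236F (25 to 27 and 5 to 14 at 2-fold). Between the point mutants it gave 0 to 15 and 0 to 10 (0 to 5 and 0 to 0 at 2-fold), above 0 only without library 1 of set2-Y149F or of set2-Y236F. No result changed direction while called under any alternative run. Summed reads, no trend, voom, leaving out copied or unplaced rows and a minimum of 10 reads were chosen after seeing the data. With 2 libraries a strain and few reads, differences of low rows are the least certain.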
